A study of Mus musculus with 14 samples.

Results

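In the colon muscularis, the muscle coat of the gut wall, 1084 of 4533 nuclei were smooth muscle nuclei whose transcripts included Fn1, Postn, Aspn, Fgf10, Fgf7 or Igfbp2 and which held fewer transcripts of a set of 5 opposing genes. They were 651 of 2837 nuclei in the WT library and 433 of 1696 in the KO library. A nucleus was a member when it had at least 4 UMIs (unique molecular identifiers, each standing for 1 RNA molecule) over Myh11, Mylk, Acta2 and Actg2, no UMI of Kit, Pdgfra or Notch3, and at most 1 over Grin3a and Hs3st4. It also needed at least 1 UMI over the 6 genes named first, and more of these than of Colec10, Nek10, Actn2, Pln and Shisa6 together. Members were thus selected on their measured UMIs, and differences in these genes between members and other nuclei describe the choice.

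The mice were of the C57BL/6 strain, with the genotype labelled WT mTmG (WT here) or Carmn iKO (KO here). Carmn encodes a long RNA without a protein product, and the series asks for its part in contraction of visceral muscle. Nuclei were isolated from frozen colon muscularis and gave 1 library per genotype. Bulk RNA of colon and jejunum muscularis gave 3 libraries per genotype and tissue. The labels do not state how or in which cells Carmn was removed, how old the mice were, whether they were treated, or whether libraries came from separate animals. P values from the bulk libraries therefore measure only the spread between these libraries, which may be technical.

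Smooth muscle cells shorten through smooth muscle myosin, whose heavy chain is Myh11, after Mylk phosphorylates the myosin light chain, and Acta2 and Actg2 are their muscle actins. The same cells also build matrix. Fn1 encodes fibronectin, a fibril-forming glycoprotein bound by integrins. Postn encodes periostin, a matricellular protein that links to collagen and fibronectin, and Aspn encodes asporin, a small leucine-rich proteoglycan. Fgf7 and Fgf10 are secreted growth factors that act mainly on the epithelial form of the receptor Fgfr2, and Igfbp2 binds insulin-like growth factors. Of the opposing genes, Pln encodes phospholamban, an inhibitor of the calcium pump of the sarcoplasmic reticulum, and Actn2 an actinin of striated muscle Z-discs.

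Member nuclei held a median of 2070 UMIs in WT (354 to 55964) and 2773 in KO (401 to 25953), and nuclei outside the smooth muscle gate held 1420 and 1583. Members were 22.95% of the nuclei kept in WT (exact 95% interval 21.4 to 24.5%) and 25.5% in KO (23.5 to 27.7%). Intervals here and below cover counting error only, because each genotype had 1 library, and nothing in the nuclei was tested between genotypes. These shares were not compared, since the opposing genes themselves differed between the libraries. Only 4 KO nuclei against 108 WT nuclei carried more of the 5 opposing genes than of the 6, and these are called Colec10-type here. Of the kept nuclei, 4 barcodes occurred in both libraries, none of them a member. Levels in nuclei are given as UMIs per 1000000 summed UMIs of the nuclei named (CPM). Carmn, the targeted gene, stood at 1520 CPM in WT members and 517 in KO members, 2.94-fold lower (interval 2.73 to 3.17), and at 278 and 95.2 in nuclei outside the gate. In the bulk libraries Carmn went against the labels, as given below.

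The muscle identity of the members held in genes that the rule did not use, as a description of the same nuclei. Of 25 further smooth muscle genes 24 had at least 50 UMIs, and 21 of these were more than 2-fold higher in members than outside the gate in both libraries, against 358 of 10283 genes (3.48%). Their median ratio was 5.11 in WT and 4.94 in KO, against 0.831 and 0.870 over all genes. Des, the muscle intermediate filament desmin, stood at 918 CPM in WT members against 131 outside the gate, and at 1105 against 128 in KO. Cnn1, the actin-binding protein calponin, stood at 319 against 52.1 and at 350 against 49.8. Smtn, which encodes the cytoskeletal protein smoothelin, stood at 1112 against 184 and at 797 against 96.2. Itga5, the integrin subunit that pairs with beta 1 as a fibronectin receptor, stood at 566 against 69.6 in WT and at 1504 against 193 in KO. Ryr3, a calcium release channel, and Tacr1, a receptor for substance P, were also among the 25 genes with the highest ratios in both libraries (Ryr3 7.08 and 8.82, Tacr1 5.86 and 13.1).

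The name of the class was carried by Fn1 and Postn more than by Fgf7 and Igfbp2. In WT, Fn1 had a UMI in 521 members (80.0%), Postn in 448 (68.8%) and Aspn in 318 (48.85%). Fgf10 had a UMI in 78 (11.98%), Fgf7 in 54 (8.29%) and Igfbp2 in 51 (7.83%). In KO the counts of members were 398 for Fn1 (91.9%), 334 for Postn (77.1%), 282 for Aspn (65.1%), 51 for Fgf10 (11.8%), 51 for Fgf7 (11.8%) and 54 for Igfbp2 (12.5%). Fn1 was the only one of the 6 with a UMI in 91 WT and 35 KO members, and Postn in 47 and 11. For Fgf7 this was so in 0 and 1, for Fgf10 in 1 and 3, and for Igfbp2 in 2 and 1. The members are therefore called Fn1/Postn-type smooth muscle nuclei here.

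Epithelial nuclei, which should lack these genes, served as a reference for free RNA. Whether their UMIs came from free RNA, from another nucleus in the same barcode or from the nuclei themselves was not tested. Of 258 WT epithelial nuclei (median 1457.5 UMIs) 4.26% had a UMI of Fn1, 2.71% of Postn, 1.94% of Aspn, 0.775% each of Fgf7 and Fgf10 and none of Igfbp2, which allows up to 1.42% (exact 95% bound). Of 113 KO epithelial nuclei (median 2201 UMIs) 9.73% had a UMI of Fn1, 15.04% of Postn, 4.42% of Igfbp2 and 1.77% of Aspn. None had one of Fgf7 or Fgf10, which allows up to 3.21%. All 6 shares in the members were higher than these, but the rule asked members for a UMI of the 6 genes, so this order was partly built in. After each nucleus was thinned to 1000 UMIs, which left out 99 WT and 47 KO members, Fn1 was seen in 62.5% of WT members and 2.26% of WT epithelial nuclei, and in 76.4% and 4.88% in KO. Thinned Postn was seen in 46.4% and 1.13% in WT, and in 60.4% and 13.4% in KO. Fgf7 was at 4.89% and 1.13% in WT and at 5.44% and 0% in KO, and Igfbp2 at 2.54% and 0% and at 5.18% and 2.44%. Nuclei of the muscle gate, whatever their score, numbered 734 in WT and 409 in KO at that depth. Fn1 was seen in 386 and 298 of them, Postn in 292 and 233, Fgf7 in 27 and 21 and Igfbp2 in 14 and 20.

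**Figure D1:**
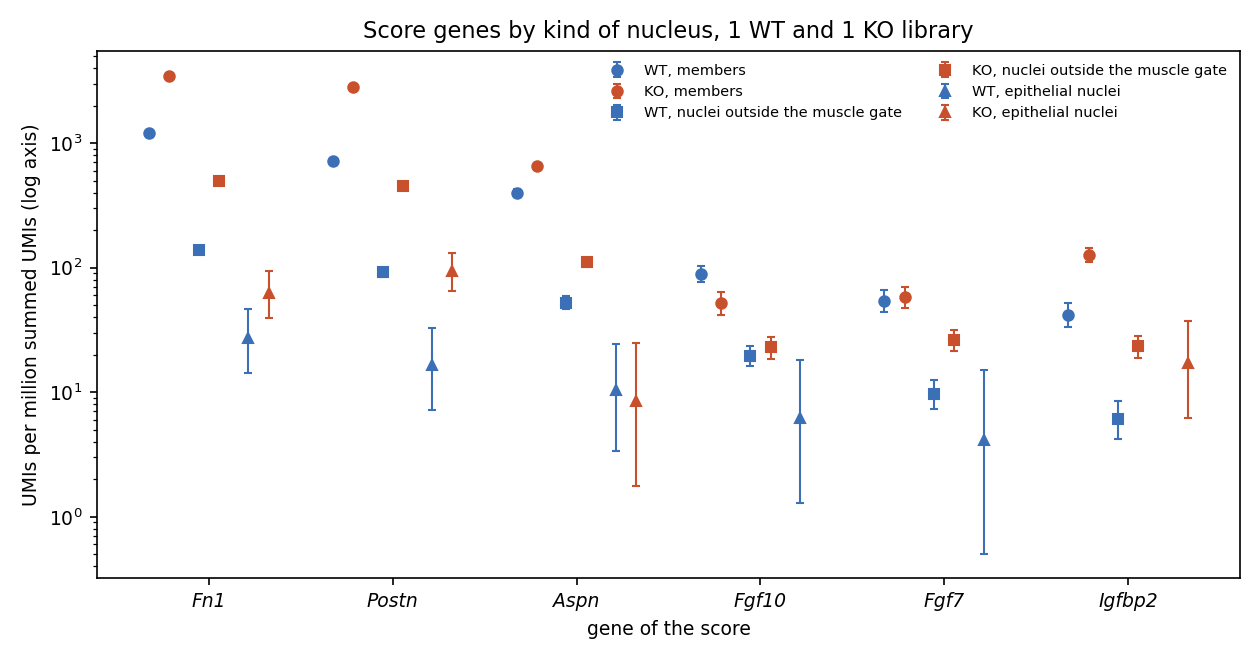
Levels of the 6 score genes in CPM on a log axis, for member nuclei (circles), nuclei outside the muscle gate (squares) and epithelial nuclei (triangles), WT in blue and KO in red, with exact 95% intervals for counting error. Fn1 and Postn in members lie higher in KO (3454 and 2840) than in WT (1210 and 714.5), and values of 0 (Igfbp2 in WT and Fgf7 and Fgf10 in KO epithelial nuclei) are not drawn.

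The cut lay in a continuous range. The 6 genes summed to a median of 5 UMIs in WT members (highest 83) and 13 in KO members (highest 525). Members with a single such UMI numbered 84 in WT and 16 in KO, and members ahead of the opposing genes by 1 UMI numbered 125 and 17. Just outside, 55 WT and 3 KO nuclei were tied above 0, and 56 and 2 were behind by 1 UMI. A further 92 WT and 21 KO nuclei passed the muscle gate with none of the 11 genes. On both sides of the cut the WT nuclei had similar Myh11, at 10040 CPM in members ahead by 1, 9082 in tied nuclei and 11520 in nuclei behind by 1. In KO the members ahead by 1 had Myh11 at 2140 and Dcn, the proteoglycan decorin typical of fibroblasts, at 2363 CPM, against 99.96 for Dcn in the same WT nuclei. The 37 KO members with only 4 to 7 UMIs over the 4 muscle genes had Myh11 at 430 and Dcn at 1624, where the 42 such WT members had 2879 and 225. The weakest KO members thus had less Myh11 and more Dcn than the weakest WT members, and a gate of 8 muscle UMIs, which kept 609 WT and 396 KO members, was tried beside the main one.

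Some members carried markers of other cell types. A barcode was counted as mixed when it had at least 3 UMIs over 49 markers of interstitial cells of Cajal, endothelium, glia, neurons, macrophages, lymphocytes, mesothelium and epithelium. This held for 150 WT members (23.0%) and 116 KO members (26.8%), whose medians were 3652 and 5711.5 UMIs against 1825 and 2234 in the rest. Scrublet, which looks for doublets, marked 3 nuclei in WT and 2 in KO, too few for a working call, so no barcode was removed and values without the mixed barcodes are given where they moved a named result. The 10 fibroblast markers summed to 1892 CPM in WT members and 3120 in KO members, and to 2108 and 3591 outside the gate. Markers within this sum went opposite ways. Col3a1, the largest part of the sum in members, stood at 1275 in WT and 1907 in KO members, against 605 and 1010 outside. Dcn, the proteoglycan decorin, stood at 178.5 and 466 in members, against 596 and 1226 outside. Pdgfra was at 0 in members by the rule. The part of these other cells in the KO values was not tested.

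Within members, 523 of 7827 genes with at least 50 UMIs were more than 2-fold higher in KO (6.68%) and 191 more than 2-fold lower (2.44%), with a median ratio of 1.05. Without mixed barcodes the counts were 244 and 177 of 5493 genes, of which 163 and 92 were among the first, and with the gate of 8 muscle UMIs 331 and 231 of 7428. Of the 6 score genes, Fn1 stood at 1210 CPM in WT (2319 UMIs) and 3454 in KO (6244 UMIs), a ratio of 2.85 (interval 2.72 to 2.99). Postn stood at 714.5 (1369 UMIs) and 2840 (5135 UMIs), a ratio of 3.98 (3.74 to 4.22). Aspn stood at 396 and 658, a ratio of 1.66 (1.52 to 1.82). The Fn1 difference was spread over many nuclei, since 153 WT members (23.5%) and 251 KO members (58.0%) held 5 or more Fn1 UMIs. For Postn these were 80 (12.3%) and 160 (36.95%). Without mixed barcodes the ratios were 3.26 for Fn1 and 4.14 for Postn, and over all nuclei in the muscle gate, whatever their score, 3.35 and 4.64.

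Both transcripts were also higher in KO outside the muscle gate. Fn1 stood there at 137 CPM in WT and 499 in KO, and Postn at 92.0 and 453. In epithelial nuclei Fn1 stood at 27.0 and 62.4 and Postn at 16.6 and 93.6. In 498 WT and 211 KO glial nuclei (median 2037.5 and 2431 UMIs) Postn stood at 74.3 and 299.8 and Fn1 at 14.1 and 60.2. Thinned Postn was seen in 5.56% and 27.1% of glial nuclei. In 109 WT and 65 KO neuronal nuclei (median 5570 and 7599 UMIs) Postn stood at 10.8 and 25.4 and Fn1 at 13.2 and 16.45. Thinned Postn was seen in 1.94% and 3.175% of these. The part of free RNA in the member ratios was not tested.

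The growth factor genes of the score had few UMIs. Fgf7 stood at 54.3 CPM in WT members (104 UMIs in 54 nuclei) and 58.1 in KO (105 UMIs in 51 nuclei), a ratio of 1.07 (0.808 to 1.42) that was 1.74 without mixed barcodes. Fgf10 stood at 89.2 (171 UMIs) and 52.0 (94 UMIs), a ratio of 0.583 (0.448 to 0.754), but its share of nuclei thinned to 1000 UMIs was 5.43% in WT and 8.03% in KO, so no order was read from it. Igfbp2 stood at 41.75 and 127, a ratio of 3.05 (2.35 to 3.98) that was 5.79 without mixed barcodes. Of the 230 KO UMIs of Igfbp2, 54 lay in a single nucleus and 62.2% in 10 nuclei.

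Of the contractile genes in the rule, Myh11 stood at 9732 CPM in WT and 6696 in KO members, a ratio of 0.688 (0.672 to 0.704), and Mylk at 1210 and 749, a ratio of 0.619 (0.578 to 0.662). Acta2 (1604 and 1553, ratio 0.968) and Actg2 (3236 in both) were nearly level. Of the 24 smooth muscle genes outside the rule none was more than 2-fold higher or lower, and their median ratio was 0.802, or 0.945 without mixed barcodes, against 1.05 and 1.03 over all genes. Tpm1, a tropomyosin of the thin filament, stood at 3635 and 2295 (ratio 0.631), Myl9, a myosin light chain, at 120.0 and 78.5 (0.654), and Des at 918 and 1105 (1.20). Without mixed barcodes these ratios were 0.705, 0.719 and 1.44. A sum of 10 smooth muscle markers, Myh11 and Mylk among them, stood at 23370 in WT and 18520 in KO members. Without mixed barcodes the sums lay nearer, at 27670 and 24930.

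**Figure D2:**
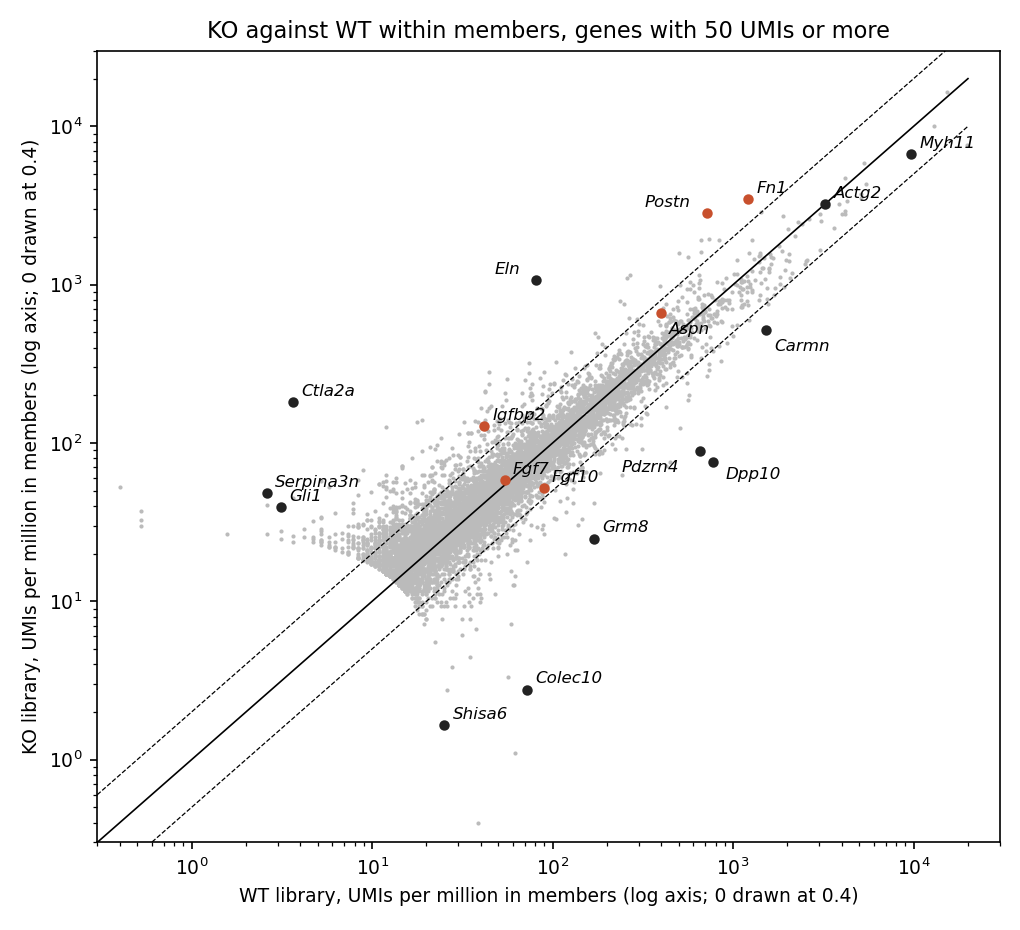
KO against WT levels in CPM within members, on log axes, for 7827 genes with at least 50 UMIs over both libraries (grey), with the 6 score genes in red and other named genes in black. The solid line marks equal levels and the dashed lines 2-fold, beyond which lie Fn1, Postn, Igfbp2, Eln, Ctla2a, Serpina3n and Gli1 above, and Carmn, Dpp10, Pdzrn4, Grm8, Colec10 and Shisa6 below.

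Matrix genes stood higher in KO members. Of 51 listed, 43 had enough UMIs. Of these 18 were more than 2-fold higher and none more than 2-fold lower, against 6.68% and 2.44% of all genes. Their median ratio was 1.59, against 1.05 over all genes. The same list had a median ratio of 1.60 outside the gate, close to that in members. Eln, the elastin of elastic fibres, stood at 81.4 CPM in WT (156 UMIs) and 1066 in KO (1928 UMIs), a ratio of 13.1 (11.1 to 15.5), with 52.75% of the KO UMIs in 10 nuclei. Eln was also higher outside the gate (96.2 and 374), in epithelial nuclei (14.6 and 238) and in glial nuclei (152.5 and 359). In neuronal nuclei it stood at 19.2 and 14.95. Its thinned share of nuclei was 10.5% and 23.6% in members, 11.8% and 23.2% in glia and 1.94% and 1.59% in neurons. The share in members was thus near that in glia and above that in neurons, and the part of free RNA was not tested. The basement membrane collagens Col4a1 (395 and 981, ratio 2.48) and Col4a2 (264 and 614.5, ratio 2.33), the fibrillar collagen Col1a1 (88.2 and 228, ratio 2.58) and the glycoprotein Tnc, tenascin C (660 and 1615, ratio 2.45), were higher as well. Tnxb (390 and 251, ratio 0.643) and Sparcl1 (387 and 272, ratio 0.702) lay on the other side of 1.

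Growth factor and signalling genes lay on both sides. Over all genes 6.68% were more than 2-fold higher and 2.44% lower. Of 17 tested genes of the FGF and IGF axis 5 were more than 2-fold higher and none lower. Igf1, the growth factor that Igfbp2 binds, stood at 17.75 CPM in WT members (34 UMIs in 27 nuclei) and 136 in KO (246 UMIs in 68 nuclei), a ratio of 7.67 (5.34 to 11.3). Outside the gate Igf1 stood at 16.5 and 96.7. Fgf9 stood at 20.4 and 56.4 (2.77), with 2 of 39 WT and 6 of 102 KO UMIs left without mixed barcodes, and at 116 and 166 outside the gate. The list's median ratio was 1.71, against 1.05 over all genes. Without mixed barcodes it was 1.17, against 1.03, and 4 genes were more than 2-fold higher and 2 lower. Their receptors were close to level, with Igf1r at 949 and 762 (0.803) and Fgfr2 at 416 and 388 (0.932). Of 26 genes of the BMP, TGF-beta and Wnt axis 6 were more than 2-fold higher and 1 lower. The activin antagonist Fst (14.6 and 69.7, ratio 4.77) and the BMP antagonist Grem1 (24.01 and 76.9, ratio 3.20) were among the higher.

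Among 32 channel, calcium store and receptor genes and 46 transcription factor genes, the share more than 2-fold higher was near that of all genes (6.68%). Of the 32, 2 were higher, Kcnj8 (12 and 45.9, ratio 3.82), a pore subunit of ATP-sensitive potassium channels, and the gap junction gene Gja1 (6.79 and 24.9, ratio 3.67, or 1.65 without mixed barcodes). None was more than 2-fold lower. The muscarinic acetylcholine receptors Chrm2 (1821 and 1012, ratio 0.556) and Chrm3 (1045 and 556, ratio 0.532) and the cGMP phosphodiesterase Pde5a (990 and 548, ratio 0.554) came nearest. Of the 46, 3 were higher, namely Hoxd9 (5.06), Vgll3 (4.92) and Runx1 (4.24). Foxp2 (3028 and 1666, ratio 0.550) and Pbx3 (1908 and 963, ratio 0.505) lay among the lowest. Of 12 glucocorticoid-responsive genes 7 were more than 2-fold higher, including Fkbp5 (102 and 237, ratio 2.33) and the metallothionein Mt1 (4.17 and 25.4, ratio 6.09, or 16.8 without mixed barcodes). The list's median ratio was 2.27 in members and 1.77 outside the gate, against 1.05 and 1.004 over all genes. Of 6 immediate early genes 2 were more than 2-fold higher, Junb (5.22 and 34.3, ratio 6.57, or 14.4 without mixed barcodes) and Fosl2 (20.4 and 43.7, ratio 2.15).

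The 12 genes with the highest KO to WT ratio were Ankrd1, Lmcd1, Hmga2, Ctla2a, Gm11846, Serpina3n, Nupr1, Ltbp2, Eln, Gli1, Fam20a and Gm12840. Several rested on few nuclei. Ankrd1, Lmcd1 and Hmga2 had 1 WT UMI each, and 66 of the 67 KO UMIs of Ankrd1 and 52 of the 54 of Hmga2 lay in 10 nuclei. Of the 95 KO UMIs of Gm11846, 94 lay in a single nucleus. Ctla2a, a cysteine protease inhibitor-like gene, was seen in more nuclei, with 7 UMIs in 7 WT members and 328 in 88 KO members, a ratio of 49.7 (23.8 to 124.5). It had a UMI in 1.07% of WT and 20.3% of KO members, and in none of the WT and 8.85% of the KO epithelial nuclei. Gli1, a transcription factor and target of hedgehog signalling, had 6 UMIs in 6 WT members and 71 in 48 KO members, at most 4 in any nucleus, a ratio of 12.5 (5.49 to 35.3), which was 45.5 without mixed barcodes and 6.05 over all nuclei in the muscle gate. For Ctla2a these were 81.1 and 66.0.

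The 12 genes with the lowest ratio were Clca1, Colec10, Cyp2c55, Fcgbp, Shisa6, Dpp10, Kctd16, Gm20754, Slco5a1, Pdzrn4, Ntng1 and Grm8. Colec10 and Shisa6 belong to the opposing set of the rule. Dpp10, a protein that modulates A-type potassium channels, stood at 777 CPM over all WT members and 75.8 over all KO members, 10.25-fold lower (8.598 to 12.3). It had a UMI in 202 WT and 27 KO members, and 82.5% of its KO UMIs lay in 10 nuclei. Pdzrn4 stood at 658 and 89.0, 7.38-fold lower (6.26 to 8.76). It had a UMI in 283 WT and 56 KO members, and 52.2% of its KO UMIs lay in 10 nuclei. Grm8, a metabotropic glutamate receptor, stood at 169 and 24.9, 6.77-fold lower (4.95 to 9.47). Without mixed barcodes Dpp10, Pdzrn4 and Grm8 had ratios of 0.0781, 0.0945 and 0.0926. Clca1, Fcgbp and Cyp2c55, genes of the intestinal epithelium, had most of their WT UMIs in 10 nuclei (92.4%, 90.8% and 98.65%).

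In WT, where both classes held enough nuclei, members could be set beside the 108 Colec10-type nuclei. Of 5889 genes 322 were more than 2-fold higher in members (5.47%) and 134 more than 2-fold lower (2.28%). Genes named here needed a UMI in at least 5% of members, a filter set in the class where they are high. Apart from the rule's genes, the 15 highest were then Id4, Pcsk5, Eva1a, Sorcs2, Oasl2, Tmem200a, Podn, Acp6, Lrrc7, Thbs1, Alkal1, S100a6, Glp2r, Galnt10 and Ccn2. Lrrc7, a postsynaptic-density scaffold gene, had 296 UMIs in members and 6 in Colec10-type nuclei, a ratio of 9.65 (4.38 to 26.5). Thbs1, the matrix glycoprotein thrombospondin 1, had 144 UMIs in 58 members and 0 in Colec10-type nuclei, at least 9.39-fold higher against a floor of 3 counts over that class. Id4, an inhibitor of basic helix-loop-helix factors, had 111 UMIs in 68 members and 1 in Colec10-type nuclei, a ratio of 21.7 (3.82 to 865). Glp2r, the receptor of the gut hormone GLP-2, had 81 UMIs in 51 members and 2 in 1 Colec10-type nucleus, a ratio of 7.92 (2.12 to 66.5). The matricellular gene Ccn2 had 107 and 3 UMIs, a ratio of 6.97 (2.32 to 34.4). Without mixed barcodes 215 genes were more than 2-fold higher, 86 of them among the 322. The ratio was then 17.7 for Id4, 6.75 for Lrrc7 and 14.85 for Ccn2 (73 and 1 UMIs). With no UMI left in Colec10-type nuclei it was at least 5.83 for Thbs1, at least 3.32 for Glp2r and at least 1.15 for Pcsk5, whose member UMIs went from 85 to 17.

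Of the muscle genes that both classes needed to pass the gate, Myh11 stood at 9732 CPM in members and 10850 in Colec10-type nuclei and Acta2 at 1604 and 1388. Of muscle genes outside the rule, Cnn1 stood at 319 and 203 CPM, Tagln, the actin-binding protein transgelin, at 433 and 331, and Des at 918 and 763. Among genes with a UMI in at least 5% of Colec10-type nuclei, the lowest ratios were in Syn2, Tafa1, Rbfox1, Ptprt, Trpm3, Plcxd3, Snhg11, Dlgap1, Pcdh11x and Ncam2. Of these Syn2 and Snhg11 are typical of neurons. The 6 neuron markers stood at 571 CPM in Colec10-type nuclei and 179.5 in members. Without mixed barcodes 40 genes were more than 2-fold lower, of which 7 were among the 134 and the others were different genes.

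Clustering of the members alone gave 12 groups, which were left unnamed and whose leading genes describe them. Group 1 (127 WT and 91 KO nuclei) was led by Tinagl1, Gm11946, Hoxb3os and Smtn, with Myh11 at 14470 CPM. Group 2 (170 and 19) was led by Grm8, Colec10, Pln and Pdzrn4, so that 26.1% of the WT members lay in a group led by genes that included 2 of the opposing set. Group 4 (12 and 104) was led by Igfbp2, Ptgs2, Vgll3, Ccn2, Postn and Fn1, with Fn1 at 6704 and Postn at 5572. Its WT nuclei had Fn1 at 2523, Postn at 1179 and Igfbp2 and Vgll3 at 0, against 7034, 5919, 371 and 184 in its KO nuclei. Group 5 (39 and 62) was led by Fam189a1, Ctla2a, Igf1, Hpse2, Htr2b, Adamts19 and Eln among others, with Eln at 2666. Eln stood at 86.15 in its WT and 3434 in its KO nuclei, and Ctla2a at 38.3 and 678. Hpse2 (5169 and 5461) and Adamts19 (1110 and 1039) were at similar levels in both. Fgf7 and Fgf10 were highest in group 10 (40 and 6), at 569 and 779, where Lepr and Enpp2 also led. The markers of interstitial cells of Cajal were highest in that group too, at 674 CPM, with glia markers at 267 and Myh11 at 6031, and their part in the Fgf7 and Fgf10 levels was not tested. Group 6 (45 and 35), with Fgf10 at 301.5, was led by Ptpru and Gpc3 among others. Group 7 (46 and 22) was led by Id4 and Dpp10 and had Postn at 189, and group 3 (93 and 25) was led by Tex15, Abi3bp and Plcb4. In groups 8 (26 and 35), 9 (33 and 24), 11 (15 and 3) and 12 (5 and 7) most barcodes were mixed (93.4%, 98.25%, 72.2% and 100%). The glia markers stood at 3723 CPM in group 9, the epithelial markers at 2350 in group 11 and the neuron markers at 3563 in group 12. Group sizes were not compared between genotypes, because genes that lead the groups differed between the libraries.

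**Figure D3:**
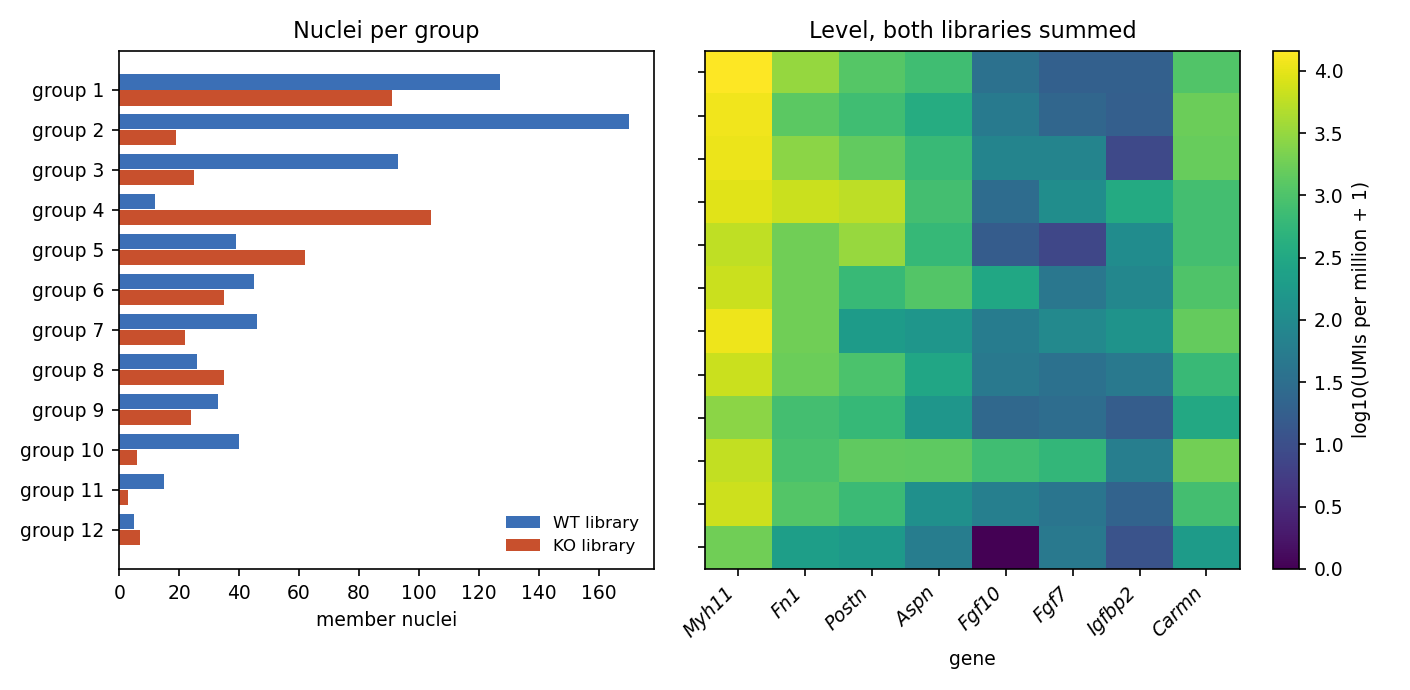
Left, number of member nuclei of the WT (blue) and KO (red) library in each of 12 groups. Right, level of Myh11, the 6 score genes and Carmn in each group, both libraries summed, as log10 of CPM plus 1, where Fgf7 and Fgf10 are highest in group 10 (569 and 779) and Fn1 and Postn in group 4 (6704 and 5572).

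Detection of the score genes in the same nuclei was read within the muscle gate at 1000 UMIs per nucleus, as shares of few nuclei. Igfbp2 was seen in 3 of 27 WT nuclei with Fgf7 (11.1%, exact interval 2.35 to 29.2%) and in 11 of 707 without (1.56%, 0.779 to 2.77%). In KO it was seen in 6 of 21 (28.6%, 11.3 to 52.2%) and 14 of 388 (3.61%, 1.99 to 5.98%). Postn was seen in 19 of 27 WT nuclei with Fgf7 (70.4%, 49.8 to 86.2%) and 273 of 707 without (38.6%, 35.0 to 42.3%). In KO it was seen in 15 of 21 (71.4%, 47.8 to 88.7%) and 218 of 388 (56.2%, 51.1 to 61.2%). Fgf7 and Fgf10 were seen together in 2 nuclei in WT and 1 in KO. Colec10 was seen in none of the 27 WT nuclei with Fgf7, which allows up to 12.8%, and in 61 of 707 without (8.63%). In KO it was seen in none of 21 and 3 of 388, too few to compare. Nek10, also of the opposing set, was seen in 3 of the 27 (11.1%) and 93 of the 707 (13.15%). Fn1 and Postn, which name the class, were not set apart from these 2 opposing genes in WT. Colec10 was seen in 7.51% of nuclei with Fn1 and 9.2% without, and in 9.25% with Postn and 7.69% without. Nek10 was seen in 16.1% with Fn1 and 9.77% without, and in 12.3% with Postn and 13.6% without. Postn itself was seen in 43.5% of WT nuclei with Fn1 and 35.6% without.

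Chromatin access was read from the same nuclei, as cut sites of the transposase in regions called by the authors separately in each library. The genes' start sites in the files lie within 29 bases of RefSeq starts of build GRCm38.p6 for 6 of 7 genes compared, and 217 bases away for Acta2. The promoters of Postn and Acta2 are shown as the 250 bases before the RefSeq start. Their start sites lay in a called region that was more accessible in members, for Postn in KO only. Those of Myh11 and Fn1 did as well, but the promoter reference used held no sequence for these genes. Of Postn on chromosome 3 (chr3:54360857-54361106, plus strand) the TATAAA 26 bases before the start is in capitals. Of Acta2 on chromosome 19 (chr19:34255374-34255623, minus strand) the GGAATG, the reverse complement of CATTCC, a TEAD-type motif, 146 bases before the RefSeq start is in capitals. The start site of Acta2 in the files, position 34255590, lies inside this window, so most of it, the GGAATG included, is downstream of that start site.

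Postn promoter: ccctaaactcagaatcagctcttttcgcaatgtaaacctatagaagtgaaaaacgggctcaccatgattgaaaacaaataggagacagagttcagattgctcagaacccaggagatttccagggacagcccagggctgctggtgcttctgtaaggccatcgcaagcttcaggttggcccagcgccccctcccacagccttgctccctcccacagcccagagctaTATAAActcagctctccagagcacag

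Acta2 promoter: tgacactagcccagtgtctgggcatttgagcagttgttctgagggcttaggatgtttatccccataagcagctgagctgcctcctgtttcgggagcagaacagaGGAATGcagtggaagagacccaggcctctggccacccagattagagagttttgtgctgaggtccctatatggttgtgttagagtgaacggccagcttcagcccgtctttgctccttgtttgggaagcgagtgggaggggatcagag

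On either strand TATAAA occurs in 12.4% of 32851 promoters of that length and CATTCC in 12.6%. These letters are descriptions and not sites of binding.

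At the start site of Acta2, the WT region (chr19:34255117-34256109) had 67 cut sites in members and 35 outside the gate, 111 and 19.0 per 1000000 cut sites, a ratio of 5.84 (3.83 to 9.06). In KO it had 55 and 36, a ratio of 3.45 (2.22 to 5.402). At the Myh11 start site (chr16:14290736-14291935 in WT) the ratio was 4.04 (2.98 to 5.51) in WT, with 102 and 77 cut sites, and 2.98 (2.12 to 4.22) in KO. The Fn1 start site lay in a region of chromosome 1 (chr1:71652469-71654028 in WT) with 72 and 81 cut sites, a ratio of 2.71 (1.95 to 3.77), and in KO with 49 and 55, a ratio of 2.01 (1.34 to 3.01). The Fn1 regions of the 2 libraries differ in width, so their cut sites were not compared between genotypes. At the Postn start site a region was called in KO only (chr3:54360468-54361424), with 18 and 12 cut sites, a ratio of 3.38 (1.54 to 7.70), from 9 members. No region was called within 1000 bases of the start sites of Fgf7, Fgf10, Igfbp2, Aspn, Mylk or Actg2 in either library. Of the opposing genes, Actn2 (2.75, 1.53 to 4.99) and Shisa6 (1.52, 0.880 to 2.60) had a start-site region in KO, also with more cut sites per 1000000 in members. Regions were called over whole libraries, so a gene open in few nuclei may have none.

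Of 21322 WT regions with at least 30 cut sites 5.83% were more than 2-fold more accessible in members than outside the gate, and of 15297 KO regions 5.63%. A region of the Pgm5 gene on chromosome 19 (chr19:24770198-24771285 in WT), 91114 bases from its start, ranked first of those past 1.5-fold in both libraries. It had 47 cut sites in members and 16 outside in WT, a ratio of 8.96 (4.99 to 16.9), and 40 and 2 in KO, a ratio of 45.1 (11.7 to 385). Pgm5, a phosphoglucomutase-like protein of muscle adhesion sites, stood at 1629 and 1491 CPM in members and 242 and 251 outside. A region whose nearest protein-coding start site is that of Fn1, 192048 bases away (chr1:71844797-71845701 in WT, in an exon of Gm37217), had 21 and 16 cut sites in WT, a ratio of 4.004 (1.99 to 8.21), and 26 and 14 in KO, a ratio of 4.19 (2.11 to 8.68). The Acta2 start site, a region within Kcnma1, the large-conductance potassium channel gene, and one 5504 bases from the start of Itgb1, the integrin beta 1 subunit, were also among the 10 highest.

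**Figure D4:**
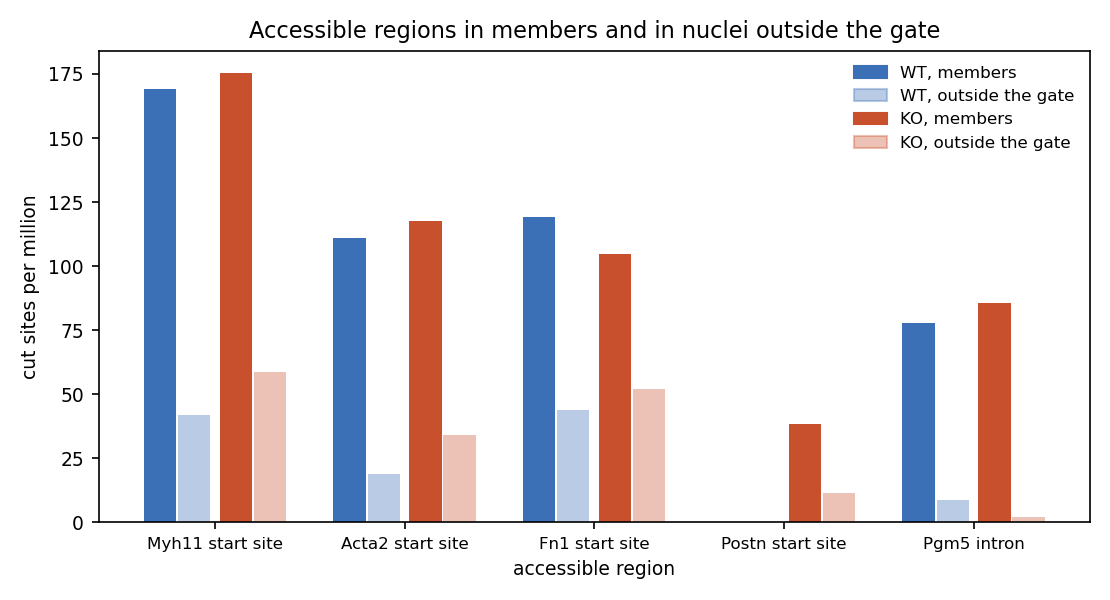
Cut sites per 1000000 in members (full colour) and outside the muscle gate (pale), WT in blue and KO in red, for regions at 4 start sites and for the region within Pgm5. Each pair is higher in members, for example 111 against 19.0 at Acta2 in WT, and no region was called at the Postn start site in WT.

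Bulk libraries, which the choice of members did not use, gave the replicated comparison. They mix all cell types of the muscularis, so fewer cells of a type and less RNA per cell cannot be told apart. The 12 libraries held 24254905 to 44315104 counts. Carmn went against the labels. In colon it stood at 461, 304 and 718 counts per 1000000 (also written CPM) in the libraries labelled KO and at 252, 171.5 and 351.5 in WT, and in jejunum all 3 libraries labelled KO were above all 3 WT. The labels do not say whether the counted part of Carmn is the part removed. Every direction below therefore rests on the labels as given. In colon, edgeR's quasi-likelihood test called 24 genes higher (0.115% of 20886) and 57 lower (0.273%) at a Benjamini-Hochberg adjusted p below 0.05, together 81 genes (0.388%). The 2 groups of 3 libraries had separate ranges in 19.2% of genes. With the colon libraries fitted alone no gene was called, with 2270 at an unadjusted p under 0.05, and leaving out single libraries gave 7 to 180 calls.

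None of the 6 score genes was called in colon. Fn1 stood at 6011 (m1), 18440 (t4) and 7701 (t6) CPM in the libraries labelled KO and at 3784 (t1), 2790 (t6) and 4835 (t7) in WT. The groups did not overlap, and KO t4 was far above the rest. The log2 fold change was 1.49 with a standard error of 0.51 (adjusted p = 0.216, edgeR), and 0.85 without KO t4. The two-sided exact permutation p was 0.1, the smallest that 3 libraries against 3 can give. Postn went the other way, at 442, 618 and 465 CPM in the libraries labelled KO and 671, 741 and 773.5 in WT. Again the groups did not overlap, with a log2 fold change of -0.52, a standard error of 0.80 and an adjusted p of 0.831 (edgeR). The direction of Postn in bulk colon was thus opposite to that within the member nuclei, and the difference between these measures was not tested.

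Fgf10 stood at 11.3, 7.67 and 7.90 CPM in the libraries labelled KO and 21.0, 14.9 and 16.1 in WT, with no overlap (log2 fold change -0.95, standard error 1.12, edgeR adjusted p = 0.764). Fgf7 stood at 16.0, 44.8 and 6.38 CPM and at 14.2, 16.0 and 17.6, and Igfbp2 at 22.4, 740 and 106 and at 338, 201 and 251. In both the KO t4 library was the highest of all 6 and another KO library the lowest, so the groups overlapped. Without KO t4 their log2 fold changes turned from 0.49 to -0.51 for Fgf7 and from 0.14 to -2.03 for Igfbp2. Aspn overlapped as well, at 131, 37.0 and 93.8 against 127, 126.5 and 107 CPM.

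**Figure D5:**
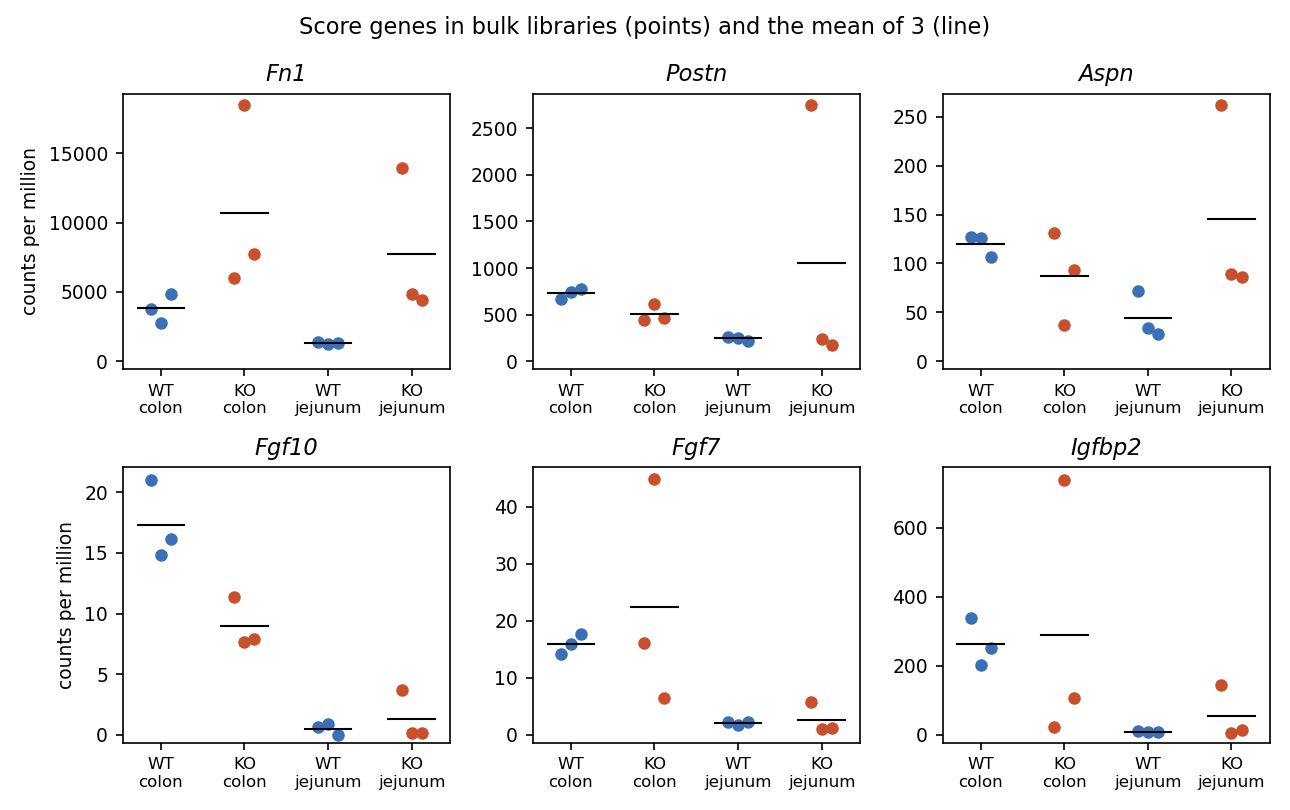
Normalised CPM of the 6 score genes in each bulk library (points, WT blue, labelled KO red) of colon and jejunum, with the mean of 3 as a line. Fn1 in the libraries labelled KO lies above WT in both tissues (colon 6011 to 18440 against 2790 to 4835), and Postn in colon lies below WT (442 to 618 against 671 to 773.5).

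In jejunum, given as values only, Fn1 stood at 13950 (m1), 4828 (t1) and 4380 (t4) CPM in the libraries labelled KO and at 1356, 1210 and 1288 in WT, without overlap. Postn stood at 2744, 240 and 171.5 against 265, 250 and 221, where KO m1 alone was high and the groups overlapped. Aspn stood at 262, 88.7 and 86.5 against 71.6, 34.0 and 27.9, without overlap.

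Genes that differed most between KO and WT members were read in bulk colon next. Of the 12 highest 11 were measured and none was called. All 11 had a positive log2 fold change, as had 10497 of all 20886 genes. Of the 11, 6 did not overlap, as did 4001 of all 20886 genes in either direction. Serpina3n, an acute-phase serine protease inhibitor, stood at 163.5, 935 and 293.5 CPM against 28.4, 30.9 and 34.3 (log2 fold change 3.89, standard error 0.84, edgeR adjusted p = 0.0886). Gli1 stood at 57.7, 20.9 and 63.6 against 10.8, 11.6 and 15.5 (1.91, standard error 0.46, edgeR adjusted p = 0.115). Eln stood at 147, 357 and 422 against 135, 43.2 and 112 (1.67, standard error 1.04, edgeR adjusted p = 0.504). Ctla2a stood at 19.8, 317 and 37.0 against 7.17, 5.99 and 5.50 (4.32, standard error 1.48, edgeR adjusted p = 0.222), or 2.19 without KO t4.

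Of the 12 lowest 11 were measured, 9 had a negative log2 fold change, 5 without overlap (19.2% of all genes, either direction), and 1 was called. This was Colec10, which stood at 1.71, 0.867 and 0.810 CPM against 14.9, 12.9 and 10.4, and fell by 3.47 on the log2 scale (standard error 0.34, edgeR adjusted p = 0.00306). With the colon libraries fitted alone its adjusted p was 0.117. Dpp10 stood at 8.47, 3.37 and 6.76 against 35.1, 36.7 and 40.9 (log2 fold change -2.60, edgeR adjusted p = 0.0607). Pdzrn4 stood at 2.80, 1.21 and 2.15 against 5.16, 6.46 and 6.55 (log2 fold change -1.55, edgeR adjusted p = 0.0703). None of the 15 genes that led members over Colec10-type nuclei was called. Of these 15, 9 had a positive and 6 a negative log2 fold change, with 3 and 1 not overlapping, near the share of all genes (19.2%). Ccn2 stood at 227, 1053 and 451 CPM against 98.4, 53.6 and 101 (log2 fold change 2.77, standard error 0.65, edgeR adjusted p = 0.111).

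The lists gave few calls in bulk colon. Over all 20886 genes 0.115% were called higher and 0.273% lower, and 10497 had a positive log2 fold change. Of 25 smooth muscle genes outside the rule 1 was called lower and none higher, and none had a positive log2 fold change (median -0.56). The called gene was Ldb3, a Z-disc protein, at 27.1, 19.4 and 24.01 CPM against 81.5, 64 and 104 (log2 fold change -1.82, edgeR adjusted p = 0.00739). Among the rule's muscle genes Mylk stood at 2593, 1357 and 2177 CPM in the libraries labelled KO and 4860, 3812 and 5691 in WT (log2 fold change -1.23, standard error 0.30, edgeR adjusted p = 0.116). Of 51 matrix genes 1, the proteoglycan gene Ogn, was called lower, and 32 had a positive log2 fold change, against 10497 of all 20886 genes. Of 45 genes of the BMP, TGF-beta and Wnt axis 1, the receptor Bmpr1a, was called lower, and of 74 transcription factor genes 1, Six5. Of 44 channel and receptor genes 2 were called lower, the calcium-store protein Casq2 and the muscarinic receptor Chrm2. Chrm2, also lower in KO members, stood at 90.5, 87.1 and 75.3 CPM against 229, 185 and 277 and fell by 1.45 on the log2 scale (standard error 0.26, edgeR adjusted p = 0.0433). Of 25 FGF and IGF genes none was called by edgeR, and 7 had an unadjusted p under 0.05, against 3026 of all 20886 genes. Of 15 glucocorticoid-responsive genes 6 were called higher (Fkbp5, Cebpd, Mt1, Apod, Sik1 and Errfi1) and all 15 had a positive log2 fold change (median 1.765). Fkbp5 stood at 124.6, 149 and 194 CPM against 25.1, 45.5 and 22.1 and rose by 2.33 on the log2 scale (standard error 0.32, edgeR adjusted p = 0.0192). Of 14 immediate early genes none was called by edgeR, and 8 had an unadjusted p under 0.05.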

How the data were processed

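Gene counts per nucleus and ATAC cut sites per region were deposited by the authors as 10x matrices made with Cell Ranger ARC, per the file headers. Regions were called separately per library. All gene values in the nuclei files were even and were divided by 2 to give UMIs. Bulk gene counts were deposited by the authors as whole-number read counts, unnormalised. Per the submitters' processing notes, the tools included STAR 2.0.4b, featureCounts 1.4.5, edgeR and Cell Ranger, with build GRCm38/mm10. No role or order is stated.

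Barcodes with at least 300 genes and at most 5% mitochondrial UMIs were kept (2837 of 3476 in WT, 1696 of 2164 in KO). The members and gene lists were chosen with earlier results of these data known. Levels are summed UMIs per 1000000, and ratios carry exact conditional 95% intervals for genes with at least 50 UMIs over both sums. Against a group at 0 a floor of 3 counts over the group was used. Named genes were the 12 highest and 12 lowest KO to WT ratios, the 15 highest and 10 lowest against Colec10-type nuclei, and the score and listed genes. Those 15 needed a UMI in at least 5% of members, and those 10 in at least 5% of Colec10-type nuclei. Clustering used scanpy 1.11.5 (2000 genes, 20 components, 15 neighbours, resolution 0.7). Region ratios needed 30 cut sites, and regions of both libraries were matched at 50% overlap. A comparison with Colec10-type nuclei was planned in both libraries and made in WT only, because KO held 4 such nuclei.

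Bulk counts of all 12 libraries (40481 genes after 276 repeated rows were removed, 20886 tested) were fitted with edgeR 4.0.16 (TMM, quasi-likelihood) in R 4.3.3, 1 group per genotype and tissue, with Benjamini-Hochberg adjustment. Scripts were tested on simulated data. Alternatives included DESeq2 1.42.0, other filters and scalings, thinning to 1000 UMIs, stricter gates and leaving out each bulk library. Values of 1 gene of the signalling list are not reported here.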

Additional observations from a re-analysis of the deposited data

Results flagged for a closer look

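Actg2, the muscle actin of the gut and one of the 4 genes of the gate, differed between KO and WT in opposite directions in the bulk tissues. In colon it stood at 1820, 4058 and 3109 CPM in the libraries labelled KO and 6311, 4910 and 6961 in WT, and in jejunum at 12960, 3506 and 4563 against 3433, 2735 and 3315. The log2 ratio of means was -1.02 in colon and 1.15 in jejunum, a difference of -2.166, and all 3 libraries of each group lay on one side in each tissue. It was the 1 gene of 55 looked at with this pattern, the difference was not tested, and in jejunum KO m1 was far above the rest.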

How the results depend on the processing

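Within members, the 523 genes higher and 191 lower in KO changed with several settings. A filter of 100 UMIs gave 263 and 120 of 5490 genes, and a filter of 20 UMIs 1037 and 375 of 10812. Thinning to 1000 UMIs gave 110 and 83 of 3029, of which 74 and 39 were among the first. The gate of 8 muscle UMIs gave 331 higher and removal of mixed barcodes 244. Median-ratio scaling gave 449 and 234. Hmga2 turned to a ratio of 0.8997 after thinning. Against Colec10-type nuclei, 322 of 5889 genes were higher and 134 lower. The rule without Fn1 gave 135 and 144 of 5714, of which 93 and 79 were among the first. Thinning gave 96 and 24 of 2200, of which only 21 and 1 were among the first. A filter of 100 UMIs gave 132 and 81 of 3871, and one of 20 UMIs 887 and 341 of 8938. Without mixed barcodes there were 215 and 40 of 4190, of which 86 and 7 were among the first. The removal of mixed barcodes, the comparisons over all gated nuclei, the gate of 8 muscle UMIs for KO against WT and the comparison of regions with nuclei outside the gate were chosen after seeing the data.

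In bulk colon the 81 genes called became 960 with DESeq2 and 0 with the colon libraries only (edgeR, 2270 at an unadjusted p under 0.05), and 7 to 180 when 1 library was left out (7 without KO colon t6, 180 without KO colon m1). Deviations from the group means correlated at -0.163 to 0.188 between libraries that share a tag. These pairs include KO with WT, and the values cannot show whether libraries came from the same animal. A replicate block on the tags gave 0 calls in edgeR (2201 at an unadjusted p under 0.05). It turned the log2 fold changes of Fgf7 to -1.064, Igfbp2 to -1.678, Ankrd1 to -1.835 and Ntng1 to 0.214. Of the 15 genes leading members 0 were called by edgeR, 1 by DESeq2 (Ccn2) and 0 to 1 with a library left out (Ccn2 without KO jejunum m1). Leaving out a library spread the log2 fold change of Fgf7 from -0.505 to 0.966, Igfbp2 from -2.03 to 0.683, Ankrd1 from -2.254 to 1.604, Ltbp2 from -0.012 to 1.059, Cyp2c55 from -0.223 to 2.4, Slco5a1 from -1.091 to 0.176 and Ntng1 from -0.582 to 0.078. DESeq2 also called Mylk, Ctla2a, Serpina3n, Gli1, Dpp10 and Pdzrn4, which edgeR did not. Where not stated above, the cause was not tested. Genes with few UMIs in 1 library of nuclei per genotype are limited by counting, and the spread between animals is not measured in the nuclei.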
